A study of Mus musculus with 12 samples.

Results

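The replication-dependent histone genes of the mouse lie mostly in a large cluster on chromosome 13, known by the older name Hist1, and chromatin accessibility across that cluster is described here. The peaks were chosen by position alone, as every ATAC-seq peak on chromosome 13 (mouse build mm9) whose deposited start lay between 21780000 and 22160000 (the first window) or between 23500000 and 23900000 (the second window). There were 103 such peaks among the 60072 of the series, 49 in the first window and 54 in the second, and 102 of them passed the filter on low values and were tested.

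The cells were mouse bone marrow progenitors, selected for CD117 on a C57BL/6 background and immortalized with a retrovirus carrying HoxB8 fused to the estrogen receptor (ER), which holds them immature while estradiol (E2) is present. Wild-type (WT) cells came from littermates, and HMGN1-OE cells came from transgenic mice that carry human HMGN1 in addition to their own gene. In both genotypes libraries were made at 0 h, with E2, and 96 h after E2 was withdrawn, which made 4 groups of 3 libraries. All groups share the ER-HoxB8 fusion and growth in IL-3, the labels call the replicates biologically independent, and neither the promoter of the transgene nor the number of immortalized lines per genotype is given in the sources used here, so that genotype and line of origin cannot be told apart.

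Histones H2A, H2B, H3 and H4 form the core of the nucleosome, and the linker histone H1 binds where DNA enters and leaves it. Genes for the replication-dependent histones lack introns and are expressed mainly in S phase, when new chromatin is assembled. NPAT gathers at these clusters in a nuclear structure called the histone locus body, and the transcripts end in a stem-loop bound by SLBP in place of a poly(A) tail. HMGN1 binds nucleosomes and competes with linker histone for chromatin, as known from work in other cells.

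RefSeq's gene table, which describes build GRCm38.p6, was used for the names and order of the genes and for their promoters. It lists 24 histone genes from H2bc13 to H2bc11, with 31 tRNA genes among them, and 32 histone genes from H4c8 to H2ac1, of which the last pair, H2bc1 and H2ac1, is set apart from the others by other genes. By family the 56 genes are 6 of H1, 15 of H2A, 15 of H2B, 9 of H3 and 11 of H4, and 2 of the 56 are pseudogenes. Between these 2 runs lie 147 genes, of which 75 are Vmn1r genes, a family of vomeronasal receptors. No annotation of mm9 was used here, so no peak was assigned to a gene, exon or intron, and whether each of these genes falls inside the mm9 windows was not determined.

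Known elements occur in promoters of these genes, and 1 promoter of each family is shown. These were chosen to hold a TATAAA box, so its presence in all of them is by choice. Each is the first of its family in chromosome order that holds a TATAAA box, and each run gives the 200 bases before the annotated start, 5′ to 3′ on the gene's own strand, in lower case except for 3 elements in capitals, which are the TATA box (the letters TATAAA on the gene's strand), the CCAAT box (on either strand) and the octamer (the letters ATTTGCAT on either strand). The positions on GRCm38.p6 are chr13:21780626-21780825 on the minus strand for H1f5, chr13:21787249-21787448 on the minus strand for H2ac22, chr13:23571200-23571399 on the plus strand for H2bc8, chr13:21717428-21717627 on the plus strand for H3c10 and chr13:21750554-21750753 on the minus strand for H4c12.
H1f5: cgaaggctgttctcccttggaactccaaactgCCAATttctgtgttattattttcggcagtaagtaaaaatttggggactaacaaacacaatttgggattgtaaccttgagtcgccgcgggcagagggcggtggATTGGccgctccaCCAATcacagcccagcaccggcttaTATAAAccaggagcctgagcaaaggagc
H2ac22: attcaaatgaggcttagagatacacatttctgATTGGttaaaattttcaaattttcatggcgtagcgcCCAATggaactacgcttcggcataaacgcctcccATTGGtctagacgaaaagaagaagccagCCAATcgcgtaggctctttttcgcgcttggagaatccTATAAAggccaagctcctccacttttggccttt
H2bc8: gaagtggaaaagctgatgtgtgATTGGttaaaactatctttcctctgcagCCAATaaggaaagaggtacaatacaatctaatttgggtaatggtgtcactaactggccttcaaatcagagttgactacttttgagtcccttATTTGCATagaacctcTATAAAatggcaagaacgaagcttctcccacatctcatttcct
H3c10: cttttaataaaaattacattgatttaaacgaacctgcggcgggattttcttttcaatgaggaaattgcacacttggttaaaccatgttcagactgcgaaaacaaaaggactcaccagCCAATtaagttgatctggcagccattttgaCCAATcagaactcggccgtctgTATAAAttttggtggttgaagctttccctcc
H4c12: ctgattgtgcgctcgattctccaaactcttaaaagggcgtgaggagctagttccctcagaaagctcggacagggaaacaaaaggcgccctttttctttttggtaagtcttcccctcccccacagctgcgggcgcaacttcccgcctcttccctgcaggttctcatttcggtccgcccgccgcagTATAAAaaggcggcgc

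RefSeq promoter windows of 300 bases, which run from 250 before to 50 after the start, were found for 51 of the 56 histone genes and gave 52 windows. On either strand, TATAAA occurred in 59.6% of the histone windows and in 13.6% of the 32851 windows of all genes. The CCAAT pentamer was in 84.6% of histone windows and 37.4% of all windows, and it was in every H1, H2A, H2B and H3 window but in 27.3% of the 11 H4 windows. The octamer ATTTGCAT, the element bound by OCT1, was in 38.5% of H2A and 40% of H2B windows and in 1.74% of all windows, with no occurrence of these letters in the H1, H3 and H4 windows. These matches describe the sequence only.

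ATAC-seq uses a transposase that cuts and tags open DNA. The deposited values were RPKM, reads in a peak divided by peak width and library size. They were rescaled between libraries by trimmed mean of M values (TMM), and the results are called scaled RPKM. TMM takes most peaks as unchanged, whereas the RPKM values as deposited are relative to each library's total, so counts are given under both. Library totals were 21581528 to 35560463 reads, of which 24.7% to 50.0% fell in listed peaks. Wild-type replicate 1 at 96 h had the highest share, 50.0%, and HMGN1-OE libraries at 96 h had the lowest shares, 24.7% to 29.5%. Between 44415 and 79047 reads per library lay in the histone windows. Replicates correlated over the 102 tested peaks with Pearson r of 0.974 to 0.987, and no pair of libraries agreed within sampling noise.

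Peaks were dense in the windows. There were 13.2 peaks per 100 kb in the 780 kb of the windows, against 0.97 per 100 kb in the 1340 kb between them, which held 13 peaks. The 1 Mb before the first window held 30 peaks and the 1 Mb after the second held 45. Peaks of the windows were also wide, with a median of 697 bp (166 to 2368 bp) against 430 bp over all peaks, and 32% of them spanned 1000 bp or more against 6.88% of all peaks. The widest were p22134344 in the first window, of 1722 bp, and p23634462 in the second, of 2368 bp, where each peak is named by its first base on chromosome 13 in mm9.

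Levels were high for most of these peaks and very low for a minority. The median level over the 12 libraries was 10.7 scaled RPKM, against 3.71 over all peaks, and 64 of the 103 (62.1%) lay above the upper quartile of all tested peaks, 8.24 scaled RPKM, against 24.0% of all peaks. In the second window 40 of 54 peaks lay above that level, and in the first 24 of 49. The range ran from 0.71 scaled RPKM at p22073421, the peak that was not tested, to 66.0 at p23622781. Above the upper quartile the replicates of a group differed with a median coefficient of variation of 5.07% to 7.13%, and at or below it of 16.8% to 21.7%, so the weak peaks are the less precise.

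Strong peaks stood next to each other in blocks. The longest block, of 16 successive peaks all above the upper quartile, ran from 23622781 to 23776863 with a median level of 34.5 scaled RPKM, and it includes the widest gap of the second window, 60747 bp without a peak. In the first window 11 successive strong peaks ran from 21801894 to 21904595 with a median of 23.6 scaled RPKM, and 5 more ran from 22120620 to 22143489 with a median of 31.4. Blocks of 7 strong peaks each lay at 23515512 to 23528477 and at 23830590 to 23855884, with medians of 13.1 and 27.4 scaled RPKM.

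**Figure D1:**
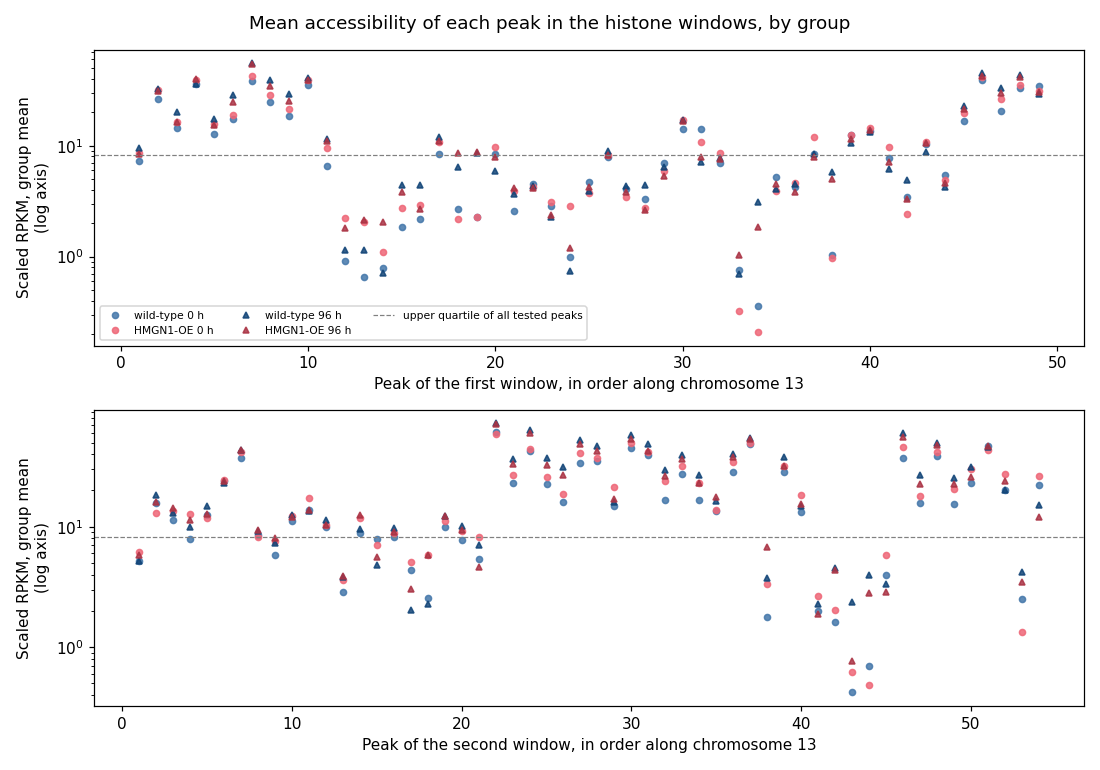
Mean scaled RPKM of each of the 103 peaks (log axis) against its order along chromosome 13, for the first window (49 peaks, above) and the second window (54 peaks, below), with 1 symbol per group and the upper quartile of all tested peaks, 8.24, as a dashed line. Strong peaks stand in blocks, and within a block the wild-type mean at 0 h is usually the lowest of the 4.

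The peak of highest level, p23622781 (23622781 to 23623704), had 60.5, 64.0 and 60.2 scaled RPKM in wild-type libraries at 0 h, 62.3, 55.0 and 58.8 in HMGN1-OE at 0 h, 69.2, 75.9 and 72.2 in wild-type at 96 h, and 71.1, 69.4 and 73.9 in HMGN1-OE at 96 h. Every library at 96 h lay above every library at 0 h, and the genotypes overlapped at both times. Its rise over 96 h was 0.23 ± 0.07 (SE) on the log2 scale in wild-type and 0.28 ± 0.07 in HMGN1-OE, and both passed the test, with adjusted p of 0.00463 and 0.0011 by limma. These are changes on TMM-scaled values, and on RPKM as deposited the change in HMGN1-OE was -0.35, a called fall (adjusted p = 0.0178). Its neighbour p23626735 had means of 42.6, 44.4, 63.8 and 60.0 scaled RPKM in wild-type and HMGN1-OE at 0 h and wild-type and HMGN1-OE at 96 h. It too rose in both genotypes on TMM-scaled values, by 0.57 ± 0.07 and 0.43 ± 0.07, with adjusted p of 1.6e-06 and 5.7e-05, whereas as deposited its change in HMGN1-OE was -0.21 and was not called.

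Other peaks among the strongest gave no call on TMM-scaled values. At p23852510 the means were 46.6, 43.7, 46.2 and 47.2 scaled RPKM in the same order of groups, and no comparison passed the test. At p21813348 they were 36.2, 38.9, 36.4 and 39.6, again with no call. Means at p23775272 were 48.3, 49.5, 55.1 and 54.0, and its 3 wild-type libraries at 96 h spread from 46.3 to 60.2. None of its differences was called. On RPKM as deposited each of these 3 peaks was called lower in HMGN1-OE at 96 h (-0.56, -0.47 and -0.61), lower at 96 h than at 0 h in HMGN1-OE (-0.52, -0.60 and -0.51) and negative in the test of whether the change over time differed between genotypes (-0.77, -0.87 and -0.95). On that scale p21813348 was also called higher in HMGN1-OE at 0 h (0.40), and p23775272 rose in wild-type cells (0.45).

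The remaining strongest peaks rose in wild-type cells to differing degrees. At p21845170, the strongest of the first window, wild-type libraries went from 39.4, 37.1 and 38.1 scaled RPKM at 0 h to 50.9, 58.3 and 58.0 at 96 h, a log2 fold change of 0.53 ± 0.07 (adjusted p = 1.48e-06), and HMGN1-OE rose by 0.36 (adjusted p = 0.000141), whereas as deposited its change in HMGN1-OE was -0.27 and was not called. Wild-type changes over 96 h were 0.20 at p22126891, 0.21 at p21878610, 0.37 at p22134344 and 0.34 at p23662679, all called, with adjusted p of 0.0319, 0.0079, 0.000432 and 0.000344. Of these 4, p22134344 also rose in HMGN1-OE, by 0.22 (adjusted p = 0.0203), while the other 3 gave no call there (0.03, -0.01 and 0.12). As deposited all 4 were called falls in HMGN1-OE, of -0.60, -0.64, -0.40 and -0.51 in the order above. On TMM-scaled values none of the 5 passed the test between genotypes at either time, and none passed the test for a genotype by time interaction. As deposited all 5 were called lower in HMGN1-OE at 96 h (-0.61, -0.68, -0.66, -0.64 and -0.69 in the order above). All 5 were also called negative in the interaction there (-1.06, -1.06, -1.12, -1.04 and -1.11). On that scale p21845170, p21878610 and p23662679 were called higher in HMGN1-OE at 0 h (0.45, 0.45 and 0.42).

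The share of all reads in peaks that lay in the histone windows differed by group. It was 0.393%, 0.411% and 0.444% in wild-type libraries at 0 h and 0.517%, 0.508% and 0.530% in HMGN1-OE libraries at 0 h. At 96 h it was 0.574%, 0.612% and 0.587% in wild-type and 0.551%, 0.544% and 0.552% in HMGN1-OE. The 4 groups did not overlap: wild-type at 0 h was lowest, HMGN1-OE at 0 h next, then HMGN1-OE at 96 h, and wild-type at 96 h highest. Counting error alone gave each share a Wilson 95% interval of no more than ± 0.00544 percentage points. This share is relative to the other peaks. Against library totals it was 0.145% to 0.173% in wild-type and 0.208% to 0.232% in HMGN1-OE at 0 h, and 0.206% to 0.287% in wild-type and 0.137% to 0.163% in HMGN1-OE at 96 h, so on that scale the HMGN1-OE libraries at 96 h overlapped the wild-type libraries at 0 h.

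**Figure D2:**
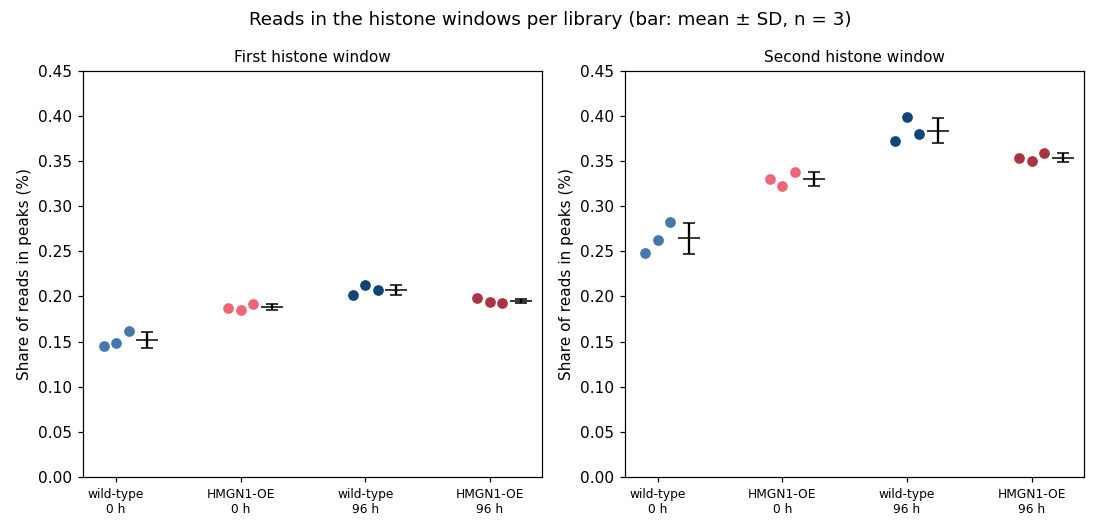
Share of each library's reads in peaks (%) that fell in the first (left) and second (right) histone window, by group, with points for libraries and a bar for the mean ± SD (n = 3). In the second window the wild-type mean rises from 0.265% at 0 h to 0.384% at 96 h, and the HMGN1-OE mean from 0.330% to 0.354%.

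At 0 h the first question was whether the windows differ between genotypes before differentiation begins. In the histone windows 24 of 102 tested peaks had a higher level in HMGN1-OE than in wild-type and 2 a lower one, by limma with Benjamini-Hochberg adjustment over all peaks at an adjusted p under 0.05. Over all 57576 tested peaks 8.74% were called higher and 14.3% lower. The median log2 fold change was 0.19 in the windows and -0.03 over all peaks, and 81 of the 102 values (79.4%) were above 0. Both windows showed it, with 9 higher of 48 in the first and 15 of 54 in the second.

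Among peaks above the upper quartile of level, 19 of 64 in the windows were higher and 1 was lower, whereas over all 14394 such peaks 7.04% were higher and 36.7% lower. As deposited the split over all strong peaks turned, with 11.7% higher and 2.75% lower, and in the windows 39 of the 64 were higher and 0 lower. On TMM-scaled values the 30 peaks in the 1 Mb before the windows gave 1 higher and 4 lower (median -0.14). The 45 in the 1 Mb after gave 5 higher and 4 lower (median 0.06). The 13 peaks between the windows gave 1 higher and 0 lower, with a median of 0.18 against 0.19 in the windows. On the RPKM values as deposited, 48 peaks of the windows were higher and 0 lower, with 14.2% and 2.61% of all peaks, and the medians were 0.45 in the windows and 0.21 over all peaks. The 24 higher calls were all called higher on that scale too, and the 2 lower calls kept their sign without passing the test. That scale moved the median of all peaks upward, so the agreement of the higher calls is no separate support. The count of higher peaks was 56 when libraries were scaled to their reads in peaks. The 2 lower calls fell to 1 without any of the HMGN1-OE replicates at 0 h or without wild-type replicate 1, and to 0 without wild-type replicate 2.

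The largest differences at 0 h were at peaks of low or middling level. At p23598912 (23598912 to 23599150) scaled RPKM was 1.85, 2.96 and 2.84 in wild-type and 4.50, 6.88 and 6.23 in HMGN1-OE at 0 h. The groups did not overlap, and the log2 fold change was 0.95 ± 0.21 (adjusted p = 0.00262). At p21913290 wild-type had 0.73, 0.55 and 0.68 and HMGN1-OE had 1.71, 2.01 and 2.44, a log2 fold change of 0.88 ± 0.20 (adjusted p = 0.00356). The value at p21999742, 1.09 ± 0.31, was the largest but rested on 1 to 36 reads per library. It had 0.10, 0.64 and 2.21 scaled RPKM in wild-type and 2.48, 2.74 and 3.30 in HMGN1-OE. Its call was lost without wild-type replicate 1 or 2 or HMGN1-OE replicate 3 at 0 h. Reads per library were also few at p23598912 (9 to 49) and p21913290 (13 to 67).

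The lower peaks were 1 weak and 1 strong peak. At p23870281 wild-type had 2.17, 3.01 and 2.31 scaled RPKM and HMGN1-OE 1.15, 1.17 and 1.66 at 0 h, a log2 fold change of -0.59 ± 0.18 (adjusted p = 0.0201). At p22036589 wild-type had 14.1, 16.0 and 12.1 and HMGN1-OE 11.6, 11.3 and 9.33, a log2 fold change of -0.36 ± 0.12 (adjusted p = 0.0398). The groups did not overlap at either peak.

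At 96 h after E2 withdrawal the genotypes differed little in the windows. HMGN1-OE had the higher level at 4 of 102 peaks and the lower at 6, with 10.5% and 11.4% of all tested peaks, and the median log2 fold change was -0.07 in the windows and 0.01 over all peaks. The second window held 3 of the higher and 5 of the lower peaks. As deposited, 0 were higher and 75 lower, with 2.02% and 46.9% of all peaks, and the medians were -0.62 in the windows and -0.48 over all peaks, so that the split of calls depends on the scaling. Neither count was stable to single libraries: the 6 lower calls became 0 without wild-type replicate 2 at 96 h, 1 without HMGN1-OE replicate 2 and 3 without HMGN1-OE replicate 1 or 3 or wild-type replicate 3, and the 4 higher calls became 2 without any of the HMGN1-OE replicates at 96 h.

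Of the 4 higher peaks p23598912 had the largest difference. At 96 h it had 2.91, 2.14 and 1.82 scaled RPKM in wild-type and 4.82, 8.06 and 4.55 in HMGN1-OE, a log2 fold change of 1.03 ± 0.21 (adjusted p = 0.00173), so HMGN1-OE libraries were above wild-type libraries at both times. On the values as deposited the change at 96 h was 0.54 and was not called (adjusted p = 0.0744). At p23783832 wild-type had 4.16, 3.86 and 3.21 and HMGN1-OE 7.23, 8.79 and 4.51 at 96 h (0.69 ± 0.20, adjusted p = 0.0197), and at p21914307, a peak of 202 bp, the means were 0.71 and 2.03 (0.84 ± 0.26, adjusted p = 0.0266). Both calls were lost as deposited and without single libraries of the groups at 96 h, and p21914307 rested on 1 to 13 reads per library. By limma p23783832 was also higher at 0 h (0.66 ± 0.20, adjusted p = 0.0227). The peak p23855454 was called higher at 0 h (0.42, adjusted p = 0.00158) and at 96 h (0.25, adjusted p = 0.0484). As deposited its value at 96 h was -0.33 and was not called.

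The largest differences among the 6 peaks called lower in HMGN1-OE at 96 h were at p23809603, p23616613 and p23891166. At p23616613 wild-type had 7.66, 6.87 and 6.52 scaled RPKM and HMGN1-OE 4.02, 4.64 and 5.21, with no overlap (-0.52 ± 0.17, adjusted p = 0.0309). At p23809603 wild-type had 3.27, 3.05 and 0.83 and HMGN1-OE 0.91, 0.34 and 1.04, and here the groups overlapped (-0.87 ± 0.28, adjusted p = 0.033). The stronger p23891166 had means of 15.1 ± 1.16 (SD, n = 3) and 12.1 ± 0.45 (-0.30 ± 0.09, adjusted p = 0.0217). All 3 were also called lower as deposited, as were 46.9% of all tested peaks. On TMM-scaled values each lost its call without wild-type replicate 2 at 96 h, among other libraries. The peak p23809603 rested on 3 to 46 reads per library.

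**Figure D3:**
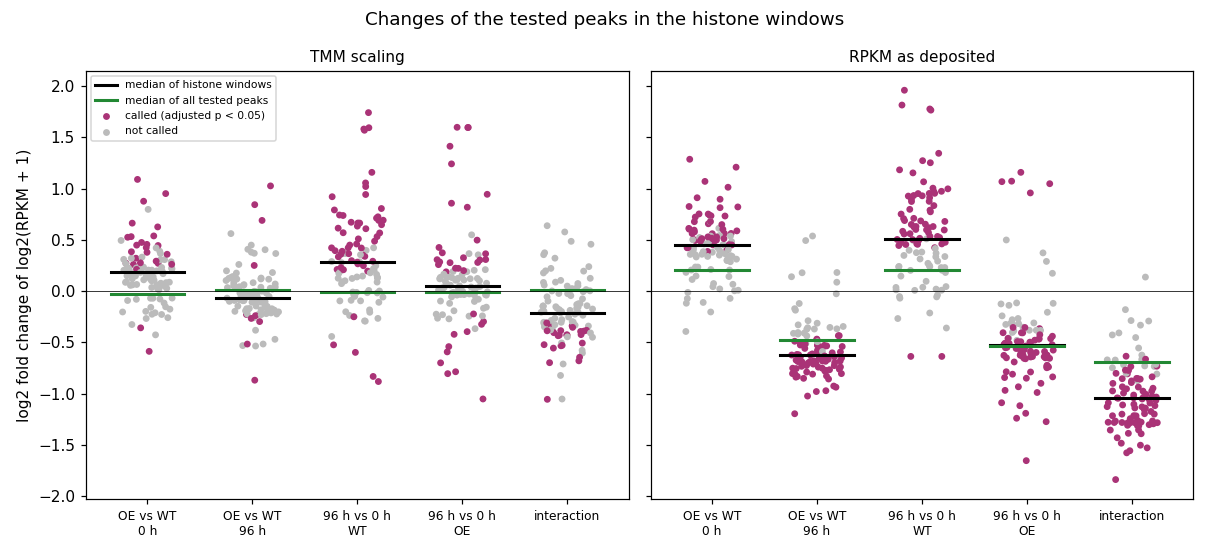
log2 fold changes of the 102 tested peaks in the histone windows for the 5 comparisons, on TMM-scaled values (left) and on RPKM as deposited (right), with called peaks in purple, others in grey, the median of the windows in black and that of all tested peaks in green. Under both scalings the windows lie above all peaks at 0 h (0.19 against -0.03, and 0.45 against 0.21) and below them in the interaction (-0.21 against 0.01, and -1.04 against -0.69).

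Over the 96 h of differentiation wild-type cells gained accessibility in the windows, chiefly at strong peaks. Of 102 peaks 50 were higher at 96 h and 5 lower, with 33.1% and 30.8% of all tested peaks, and the median log2 fold change was 0.28 in the windows and -0.01 over all peaks. Among strong peaks the scaling moved the background. On TMM-scaled values 39 of 64 strong peaks in the windows rose and 3 fell, with 24.1% and 51.9% over all strong peaks. As deposited 46 rose and 1 fell in the windows, with 27.7% and 22.9% over all strong peaks. At or below the upper quartile 11 of 38 rose and 2 fell on TMM-scaled values, with 36.1% and 23.8% of all such peaks. The medians of these weaker peaks were 0.13 in the windows and 0.11 over all. On TMM-scaled values 14 rose and 0 fell in the block of 16 peaks in the second window. In the block of 11 in the first window 10 rose and 0 fell, and in its block of 5, 4 rose and 1 fell. The blocks of 7 that start at 23515512 and 23830590 gave 1 and 5 rises, with 0 falls in each. As deposited 62 rose and 2 fell, with 37.1% and 17.8% of all peaks, and the medians were 0.51 and 0.21. The 50 rises were all called rises on that scale, which also moved the median of all peaks upward, so this is no separate support. On TMM-scaled values the median was 0.20 at the 13 peaks between the windows. It was -0.01 in the 1 Mb before the windows and -0.14 in the 1 Mb after.

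The largest log2 rises in wild-type cells, with 1 added to scaled RPKM, were at peaks that started at low levels. At p22095680 wild-type libraries went from 1.15, 1.04 and 0.92 scaled RPKM at 0 h to 7.01, 5.66 and 4.90 at 96 h, a log2 fold change of 1.74 ± 0.22 (adjusted p = 1.34e-06). At p21944179 they went from 1.97, 1.504 and 3.29 to 7.65, 8.40 and 9.81 (1.59 ± 0.19, adjusted p = 4.81e-07), and at p22081760 from 0.23, 0.41 and 0.45 to 3.45, 3.53 and 2.33 (1.58 ± 0.22, adjusted p = 2.59e-06). All 3 lie in the first window, outside its blocks of strong peaks, and leaving out any library kept each call. Reads per library were 5 to 67 at p22095680, 25 to 181 at p21944179 and 1 to 84 at p22081760.

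Peaks that closed in wild-type cells were few. Scaled RPKM at p22036589 went from 14.1, 16.0 and 12.1 to 6.87, 7.36 and 7.20 (-0.88 ± 0.12, adjusted p = 3.33e-06), and at p23597936 from 5.07, 4.21 and 3.91 to 2.00, 1.80 and 2.29 (-0.83 ± 0.18, adjusted p = 0.000357). At p23580568 it went from 8.56, 9.04 and 5.94 to 5.36, 5.09 and 3.97 (-0.60 ± 0.18, adjusted p = 0.00727), a call that was lost as deposited. The peak p22036589 is also 1 of the 2 that were lower in HMGN1-OE at 0 h.

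In HMGN1-OE cells the median change of the windows over the same time was near 0 on TMM-scaled values and a fall as deposited. Of 102 peaks 24 rose and 11 fell, with 31.8% and 27.5% of all tested peaks, and the median log2 fold change was 0.05 in the windows and -0.01 over all peaks. Here the direction depends on the scaling: as deposited 5 rose and 72 fell, with 18.4% and 52.2% of all peaks, and the medians were -0.52 and -0.53. Of the 24 rises 16 had the opposite sign as deposited and 7 of those were called falls, among them p23622781. The 11 falls were all called falls on both scales. As deposited the median of all peaks was itself a fall, so the agreement of the 11 falls is no separate support.

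The largest log2 rises in HMGN1-OE, with 1 added to scaled RPKM, were at weak peaks of the first window. This scale understates rises from lower levels. Means rose from 0.21 to 1.87 at p22081760, and from 0.48 to 2.80 at p23812819 of the second window. At p21943247 HMGN1-OE libraries went from 2.15, 1.96 and 2.43 scaled RPKM to 7.63, 9.43 and 8.86, a log2 fold change of 1.60 ± 0.15 (adjusted p = 2.18e-08), and wild-type libraries went from 2.59, 2.83 and 2.61 to 7.04, 6.78 and 5.61. Its neighbour p21944179, less than 1 kb away, rose by 1.60 ± 0.19 in HMGN1-OE and 1.59 ± 0.19 in wild-type, and p22095680 by 1.60 ± 0.22 and 1.74 ± 0.22. These rises were called in both genotypes under both scalings.

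The clearest loss was at p23891166, the last peak of the second window. Its levels were 23.9, 22.9 and 19.8 scaled RPKM in wild-type at 0 h and 13.9, 16.1 and 15.4 at 96 h, and 25.6, 25.4 and 27.5 in HMGN1-OE at 0 h and 11.7, 12.6 and 12.03 at 96 h. It fell in both genotypes, by 0.52 ± 0.09 on the log2 scale in wild-type (adjusted p = 3.69e-05) and by 1.05 ± 0.09 in HMGN1-OE (adjusted p = 5e-09). As deposited the wild-type fall was not called (adjusted p = 0.164). Falls in HMGN1-OE at p21999742 (-0.80 ± 0.31, adjusted p = 0.0299) and p23824477 (-0.79 ± 0.26, adjusted p = 0.0131) were at weak peaks and were lost without single libraries.

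**Figure D4:**
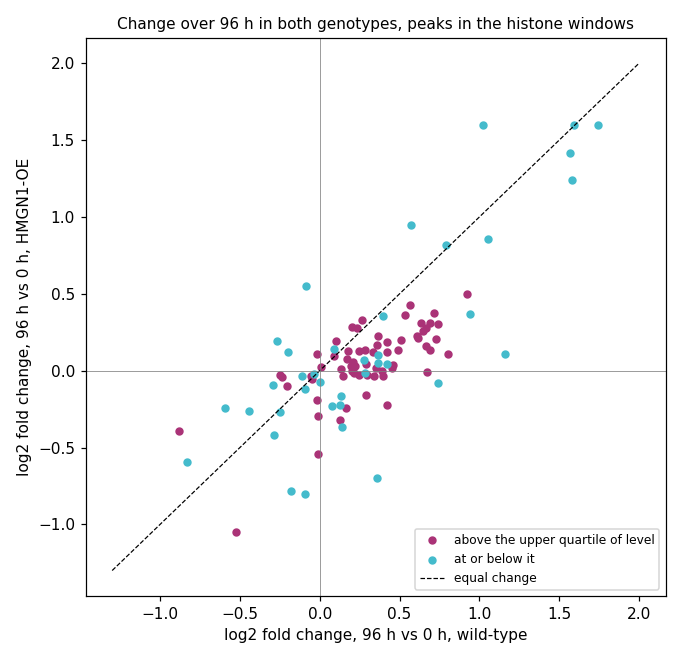
log2 fold change from 0 h to 96 h in HMGN1-OE (vertical axis) against wild-type (horizontal axis) for the 102 tested peaks, coloured by level, with a dashed line where the 2 changes are equal. Most strong peaks lie right of 0 and below the dashed line, with medians over the windows of 0.28 in wild-type and 0.05 in HMGN1-OE.

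Whether the change over 96 h differed between genotypes was tested by the genotype by time interaction. The interaction was negative, that is, the rise was smaller or the fall larger in HMGN1-OE, at 24 of 102 peaks, with 6.21% of all tested peaks, and positive at 0, with 10.8% of all tested peaks, by limma. At an unadjusted p under 0.05 the counts were 35 negative and 2 positive, and limma-voom called 23 negative and 1 positive. The median was -0.21 in the windows and 0.01 over all peaks. Of the 24 negative calls 23 were at strong peaks, of which there are 64, whereas over all strong peaks 8.44% were negative and 26.5% positive. As deposited 63 of the 64 were negative and 0 positive, but so were 65.2% of all strong peaks, with 0.646% positive. Of the 102 peaks 81 were negative as deposited and 0 positive, with 46% and 0.853% of all peaks, and the medians were -1.04 and -0.69. The 24 peaks were all called negative there too. That scale moved the median of all peaks to -0.69, so this agreement is no separate support. On TMM-scaled values the median interaction was 0.03 between the windows, 0.07 in the 1 Mb before them and -0.16 in the 1 Mb after.

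The 24 peaks shared a pattern of group means. Wild-type at 0 h was the lowest of the 4 means at 21 of them and wild-type at 96 h the highest at 21, and over all 103 peaks of the windows these counts were 62 and 54. In wild-type 21 of the 24 rose over 96 h, and in HMGN1-OE 8 rose and 4 fell. At 0 h 15 of the 24 were higher in HMGN1-OE, and at 96 h 5 were lower. They lay in both windows, 10 in the first and 14 in the second. The block of 11 peaks of the first window and the block of 16 of the second held 7 each. The block of 5 held 1, and the blocks of 7 that start at 23515512 and 23830590 held 0 and 4. The comparisons share libraries, so these counts are not independent of each other. A negative interaction also favours a low wild-type mean at 0 h and a high one at 96 h. The pattern therefore follows in part from how the 24 peaks were chosen. The count of 24 fell to 12 without wild-type replicate 1 at 0 h, 15 without HMGN1-OE replicate 1 at 0 h and 14 without wild-type replicate 2 at 96 h, and it was 42 when libraries were scaled to their reads in peaks.

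Single peaks chosen by the same test serve as examples. At p23667512 (23667512 to 23668143) wild-type libraries had 16.3, 15.1 and 18.2 scaled RPKM at 0 h and 27.1, 32.4 and 29.4 at 96 h, and HMGN1-OE libraries had 22.8, 24.9 and 24.8 at 0 h and 28.05, 25.8 and 24.7 at 96 h. Wild-type libraries at 0 h lay below all others. HMGN1-OE exceeded wild-type at 0 h by 0.53 ± 0.09 on the log2 scale (adjusted p = 0.000258), wild-type rose by 0.81 ± 0.09 (adjusted p = 1.65e-07), and the interaction was -0.70 ± 0.13 (adjusted p = 0.00101). The change in HMGN1-OE was 0.11 ± 0.09 and was not called, whereas as deposited it was -0.51 (adjusted p = 0.00657 by limma). On that scale the peak was also called lower in HMGN1-OE at 96 h (-0.75).

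Less than 10 kb further on, p23676922 (23676922 to 23677988) behaved alike. Wild-type had 14.3, 17.4 and 18.6 scaled RPKM at 0 h and 27.3, 27.8 and 26.3 at 96 h, and HMGN1-OE had 22.5, 24.0 and 23.2 at 0 h and 24.8, 22.6 and 22.0 at 96 h. The HMGN1-OE groups overlapped and the wild-type groups did not. The interaction was -0.68 ± 0.13 (adjusted p = 0.00132 by limma), from a wild-type rise of 0.67 ± 0.09 and a change of -0.01 ± 0.09 in HMGN1-OE. As deposited the change in HMGN1-OE was -0.62 (adjusted p = 0.0015), and the peak was called lower in HMGN1-OE at 96 h (-0.80).

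At the strong peak p23830590 (23830590 to 23832160) both genotypes rose on TMM-scaled values, from different starting levels. Wild-type had 34.5, 39.1 and 38.5 scaled RPKM at 0 h and 54.8, 63.2 and 61.5 at 96 h, and HMGN1-OE had 44.3, 46.9 and 46.7 at 0 h and 56.9, 55.0 and 55.9 at 96 h. At 0 h HMGN1-OE lay above wild-type without overlap (0.29 ± 0.07, adjusted p = 0.0054), at 96 h the genotypes overlapped, and the interaction was -0.39 ± 0.10 (adjusted p = 0.0127). As deposited the HMGN1-OE change over time was -0.35, a called fall (adjusted p = 0.0238 by limma), and HMGN1-OE was called lower at 96 h (-0.69). The widest peak, p23634462, had means of 22.6 and 37.2 in wild-type and 25.9 and 32.4 in HMGN1-OE at 0 h and 96 h, and p21871041 in the first window had means of 24.7 and 39.3 and of 28.7 and 34.4, with interactions of -0.38 ± 0.11 (adjusted p = 0.021) and -0.39 ± 0.11 (adjusted p = 0.0194). The HMGN1-OE change over time as deposited was -0.31 at p23634462, which was not called (adjusted p = 0.0675 by limma), and -0.36 at p21871041, a called fall (adjusted p = 0.0338). On that scale both peaks were called lower in HMGN1-OE at 96 h (-0.78 and -0.77).

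The largest interaction was at the narrow peak p23616613 (178 bp), where the estimated changes over time had opposite signs. This peak rested on 18 to 55 reads per library. Wild-type had 4.40, 7.34 and 4.43 scaled RPKM at 0 h, and HMGN1-OE had 8.54, 9.04 and 6.83. Wild-type changed by 0.36 ± 0.17, which was not called (adjusted p = 0.0675), HMGN1-OE fell by 0.70 ± 0.17 on the log2 scale (adjusted p = 0.00121), and the interaction was -1.05 ± 0.23 (adjusted p = 0.00442). As deposited both changes were called by limma, 0.60 in wild-type (adjusted p = 0.0154) and -1.24 in HMGN1-OE (adjusted p = 3.96e-06).

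**Figure D5:**
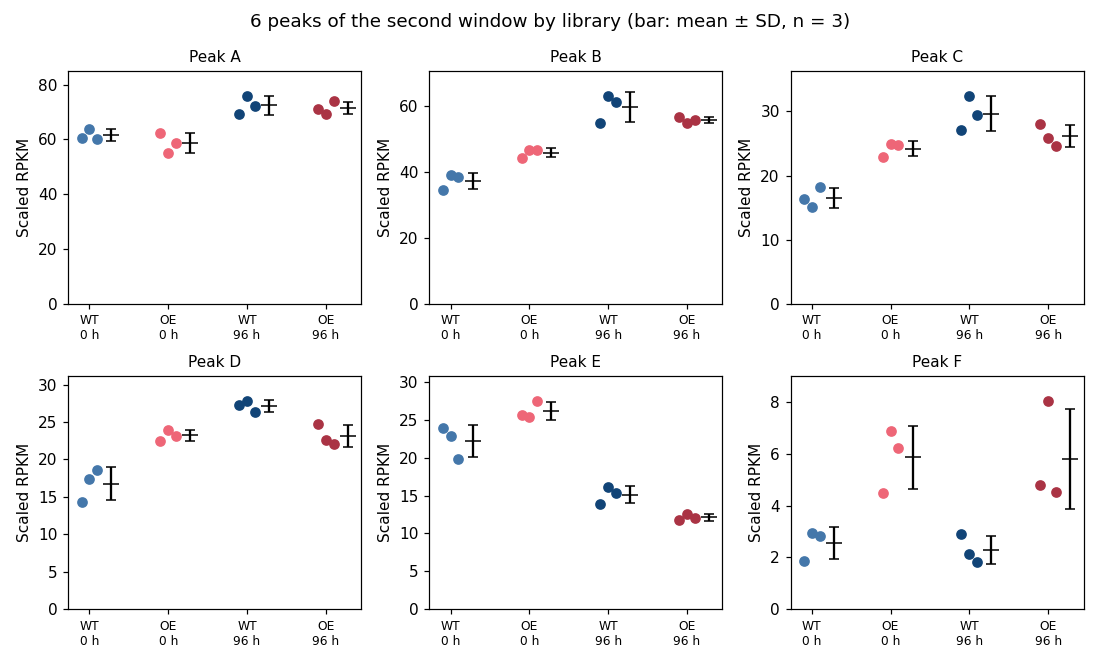
Scaled RPKM of 6 peaks of the second window in each library by group (WT, wild-type; OE, HMGN1-OE), with the mean ± SD (n = 3): A p23622781, B p23830590, C p23667512, D p23676922, E p23891166 and F p23598912. In B, C and D the wild-type libraries at 0 h lie below all others, E falls in both genotypes and F is higher in HMGN1-OE at both times.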

How the data were processed

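ATAC-seq libraries were made by the Omni-ATAC protocol, and the authors used the ChiLin pipeline with BWA, MACS and DESeq2. The submitters' processing notes name mm9. The authors deposited RPKM per peak. How peaks were merged, reads shifted and duplicates treated is not given in the sources used here. RPKM multiplied by peak width gave whole reads for 100% of values in every library (tolerance 0.001 reads), which gave the library totals.

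TMM factors (30% trimmed on the ratio, 5% on the level) used reads in peaks as library sizes. Peaks needed the equivalent of 10 reads in at least 3 libraries and 15 reads in all, which kept 57576 and removed 2496. limma 3.58.1 in R 4.3.3, with trend and robust moderation, was fitted to log2(scaled RPKM + 1) of all 12 libraries with 4 group means and no block. Fold changes on this scale understate changes of weak peaks. P-values were two-sided and Benjamini-Hochberg adjusted over all tested peaks, and a peak was called under 0.05. The fit was tested on simulated data.

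Named peaks are the 6 of highest level and the widest in each window, and the 3 called peaks of largest log2 fold change in each direction of each comparison. The members and lists were chosen with earlier results of these data known. Planned cell type markers and pathway genes were not tested, since they need an annotation of mm9. The count models planned as alternatives were not run, because the deposited unit is RPKM. Replicate numbers did not pair the samples. Figures were drawn with matplotlib 3.10.9.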

Additional observations from a re-analysis of the deposited data

Results flagged for a closer look

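The change over 96 h differed between genotypes, by the interaction term in limma with adjustment over all tested peaks, at 7 of the named peaks. Over all tested peaks this term was called negative at 6.21% and positive at 10.8%. Of the 7, p23616613, p23667512 and p23676922 were named for their interaction, so their calls here follow from that choice. HMGN1-OE minus wild-type was -0.39 at p21871041, -1.05 at p23616613, -0.38 at p23634462, -0.70 at p23667512, -0.68 at p23676922, -0.39 at p23830590 and -0.53 at p23891166 on the log2 scale. At p23891166 both genotypes fell, and at p23616613 the estimates had opposite signs. Groups of 3 libraries are too small for a check of outlying libraries.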

How the results depend on the processing

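On RPKM as deposited, peaks of the windows called higher and lower were 48 and 0 at 0 h (median 0.45), 0 and 75 at 96 h (median -0.62), 62 and 2 over time in wild-type (median 0.51) and 5 and 72 in HMGN1-OE (median -0.52), with 81 lower in the interaction (median -1.04). Scaled to reads in peaks, 56 were higher and 0 lower at 0 h (median 0.31), the wild-type median over time was 0.40, and 42 were lower in the interaction (median -0.39). TMM on library totals, chosen after seeing the data, gave 41 higher and 1 lower at 0 h and an interaction median of -0.27. RLE factors, and a fit of only the groups compared, gave 1 lower at 0 h. A pseudocount of 0.1 gave 2 higher at 96 h, and a pseudocount of 5 gave a wild-type median over time of 0.20 and 2 higher in the interaction. limma-voom gave 1 higher in the interaction. The cause of these differences was not tested.

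Of the alternatives without a left-out library, 89 of 108 counts stayed within 1.5 times the main count, 44 of 54 medians moved by less than the spread between replicates, and 259 of 277 values of named peaks kept their call. No peak changed sign in a comparison for which it was named. The replicate block changed no other call count beyond 1.5 times than that of higher peaks in the interaction, which became 1, and the correlation between same-numbered libraries was -0.041 to 0.058 in 18 pairs, none over 0.1.

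Leaving out 1 library at a time gave 17 to 26 higher and 0 to 3 lower peaks at 0 h (median 0.15 to 0.19), 2 to 6 higher and 0 to 8 lower peaks at 96 h (median -0.11 to -0.03), 42 to 57 higher and 4 to 7 lower peaks over time in wild-type (median 0.23 to 0.35), 21 to 27 higher and 8 to 11 lower peaks over time in HMGN1-OE (median 0.04 to 0.08) and 0 to 1 higher and 12 to 26 lower peaks in the interaction (median -0.26 to -0.19). Of 312 values of named peaks, 280 kept their call.

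The count models named as alternatives were not run. Weak peaks rest on few reads, and changes of the size seen there could not be measured closely.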
